A study of Mus musculus with 144 samples.

Results

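The genes described here are 40 members of the machinery that builds ribosomes in the nucleolus, together with Myc and other genes commonly linked to it. They were chosen by name from a list, 1 row of the deposited expression table per gene (the row of highest mean where a symbol was repeated), and all 40 were found among its 55364 rows. The list was written with earlier results of these data known. The samples were single cells sorted from the retina of 16 week old mice of the Iba1-EGFP strain, in which a fluorescent reporter marks microglia and other macrophages. All groups carried this reporter: 54 cells had no treatment, 54 came 2 days and 36 came 4 days after optic nerve crush, an injury to the axons that leave the eye. Cells of these groups numbered 18, 18 and 12 on each of the 3 plates. The labels name no animal or eye, so each time point is 1 sample of cells. No test between time points was possible, and the SDs below are the spread between cells.

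Ribosome production starts with transcription of ribosomal RNA by RNA polymerase I in the nucleolus. Box C/D and box H/ACA particles, built on small nucleolar RNAs, then methylate and pseudouridylate that RNA, and assembly factors fold and cut it into the small and large subunits. The transcription factor Myc is known to raise many genes of this route, along with genes of translation initiation, polyamine synthesis and nucleotide synthesis, and binds the E-box CACGTG with its partner Max. In microglia, the resident macrophages of the nervous system, growth and protein synthesis capacity are known to change with activation.

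The letters CACGTG, which read the same on both strands, were looked for from 250 bases before to 50 bases after each start site in the RefSeq promoter table (build GRCm38.p6). Of the 40 members, 34 had a window, while Rrs1, Myc, Bop1, Srm, Fbl and Npm1 had none in it. The motif occurred in 8 of the 34 (23.5%), compared with 13% of the 5195 measured genes with a window and 8.09% of all 27025 symbols in the table. Other genes of like function had similar shares: 34.5% of 29 other genes linked to Myc and 27.9% of 43 other small subunit factors. The share was 20% of 15 other polymerase I genes, 18.8% of 48 other large subunit factors and 18.5% of 27 other initiation factors. A match is a description of letters, not of binding. The stretches below are shown because they belong to the members that hold the motif and were also at least 1 log2 unit higher at day 4 than in untreated cells, with the same sign in all 3 plates, after adjustment for the number of genes detected per cell and the plate. Each is 30 bases, 5′ to 3′ on the strand of the gene, with the motif in capitals.
Wdr43, chr17:71616220-71616249, plus strand: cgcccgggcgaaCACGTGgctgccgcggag
Pes1, chr11:3963965-3963994, plus strand: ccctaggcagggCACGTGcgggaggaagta
Mybbp1a, chr11:72441347-72441376, plus strand: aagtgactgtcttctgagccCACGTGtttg
Eif5a, chr11:69921443-69921472, minus strand: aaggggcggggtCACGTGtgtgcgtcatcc
Eif5a, chr11:69920791-69920820, minus strand: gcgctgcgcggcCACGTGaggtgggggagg
Nme1, chr11:93968273-93968302, minus strand: gctgcggggaacCACGTGaggccggggagc
Nme1, chr11:93968037-93968066, minus strand: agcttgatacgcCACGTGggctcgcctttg
The motif began 17 bases after the start site in Wdr43, 2 after it in Pes1 and 40 after it in Mybbp1a. In Nme1 it began 18 bases before 1 start site and 29 before another. The first Eif5a motif began 74 bases before 1 start site and 185 before another, and the second began 178 bases before a further site. A different Eif5a start site listed lies closer to that second motif, which falls after it and outside its window. The other members with the motif were Utp4, Eif4e and Eif4a1, of which Eif4a1 had an adjusted difference of 1.28 that was -0.27 in plate 2. The 8 members with the motif had a median difference between day 4 and untreated cells of 2.21 (1.39 after adjustment), and the 26 without it 1.42 (0.74), which was not tested.

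Facts of the whole series bear on these values. As recovered from the values, a cell had a median of 5312655 reads (189878 to 18877010). The number of genes detected at 1 FPKM (fragments scaled by gene length and sequencing depth) or more had a median of 3965 at day 4, 3473 at day 2 and 2793 without treatment, so that any gene tended to be higher at day 4. At least 3 of 10 microglia markers were at 20 FPKM or more in 54 of 54, 54 of 54 and 35 of 36 cells. At least 3 border macrophage markers were that high in 5, 8 and 2 cells, monocyte markers in 0, 1 and 0, rod markers in 3, 0 and 2, and neutrophil markers in none. Markers of Müller cells or astrocytes, a list that holds Apoe and Clu, which microglia can also express, were that high in 8, 2 and 4 cells, and ganglion cell markers in 1, 0 and 0. Stray reads passed between wells: for 607 genes that had more than 95% of all their reads in a single well, 48.8% of the wells in the same plate column also had a read, compared with 2.52% of wells on other plates. A threshold of 20 FPKM is used below to call a member high in a cell.

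Ribosome biogenesis and Myc-linked members stood higher at day 4 than in untreated cells or at day 2, and stood little apart between day 2 and untreated cells. Differences are of the mean log2(FPKM + 1) over cells, which understates the change of low genes. A gene was called where the difference over all plates was at least 1 and had the same sign in each of the 3 plates. Measured genes were those at 1 FPKM or more in at least 10% of all cells: 8679 genes, among them 35 members, while Npm3, Nob1, Rrs1, Polr1b and Cad fell below this filter. Between day 4 and untreated cells, 28 of all 40 members were called higher, 26 of them among the 35 that passed the filter, and none lower; of the 8679 measured genes, 18.9% were called higher and 0.346% lower. The median difference of the 35 was 1.57 (1.64, 2.17 and 1.44 in plates 1, 2 and 3), and that of all measured genes was 0.45. With the number of genes detected and the plate as terms of the fit, 12 members were called higher and none lower, compared with 5.9% and 2.59% of measured genes, and the medians were 0.93 for the members and 0.085 for all measured genes. Because the members were chosen with earlier results of these data known, their counts and medians are descriptions and not independent of these values.

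The sign of a difference depends on where 0 is set. When each cell was centred on the median of the 2000 genes of highest mean, the difference of every gene between day 4 and untreated cells moved by -1.89, the median of all measured genes became -1.45 and that of the 35 members became -0.32. Since centring takes the same 1.89 from every gene, the distance between the members and all measured genes stayed as it was, and a negative centred value says only that a difference was below 1.89. Of the 28 called members 11 were above 1.89 and so stayed above 0, and 17 were below it. Counted on the centred scale, 1 of the 35 was called in place of 26, and 4 in place of 12 in the adjusted fit. The share of all measured genes called on that scale was not computed, so these counts cannot be set against it. Without centring, the 2000 genes themselves had a median difference of 0.91 and 38.7% of them were called, and 13 of the 14 members among them were called, with a median of 2.10. After adjustment for genes detected, centring moved every gene by -0.43, and each of the 12 members called in the adjusted fit stayed above 0. Values marked as centred below are on this scale.

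The 3 plate means at day 4 lay above the 3 of untreated cells for 20 of the 35 members (25.1% of measured genes) and below them for none (1.27%).

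Because membership of the 35 rests on detection in any group, a second filter used the earlier time point alone, an alternative chosen after seeing the data. It kept 26 members, of which 22 were called, compared with 19.8% of the 7134 genes it kept, and 10 in the adjusted fit, compared with 6.29%. Among cells with 2500 to 4500 genes detected (31 untreated, 27 day 2 and 18 day 4 cells), 11 of the 35 were called between day 4 and untreated cells, compared with 8.64% of the measured genes, and the members' median was 0.92. Without the 8, 9 and 4 cells that held rod, border macrophage, monocyte or neutrophil markers, 25 of the 35 were called, with a median of 1.64. Without the 16, 11 and 7 cells that held 3 or more markers of any list other than microglia, an alternative chosen after seeing the data, 26 were called, with a median of 1.75. The share of all measured genes called without these cells, or without the smaller set before, was not computed.

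**Figure D1:**
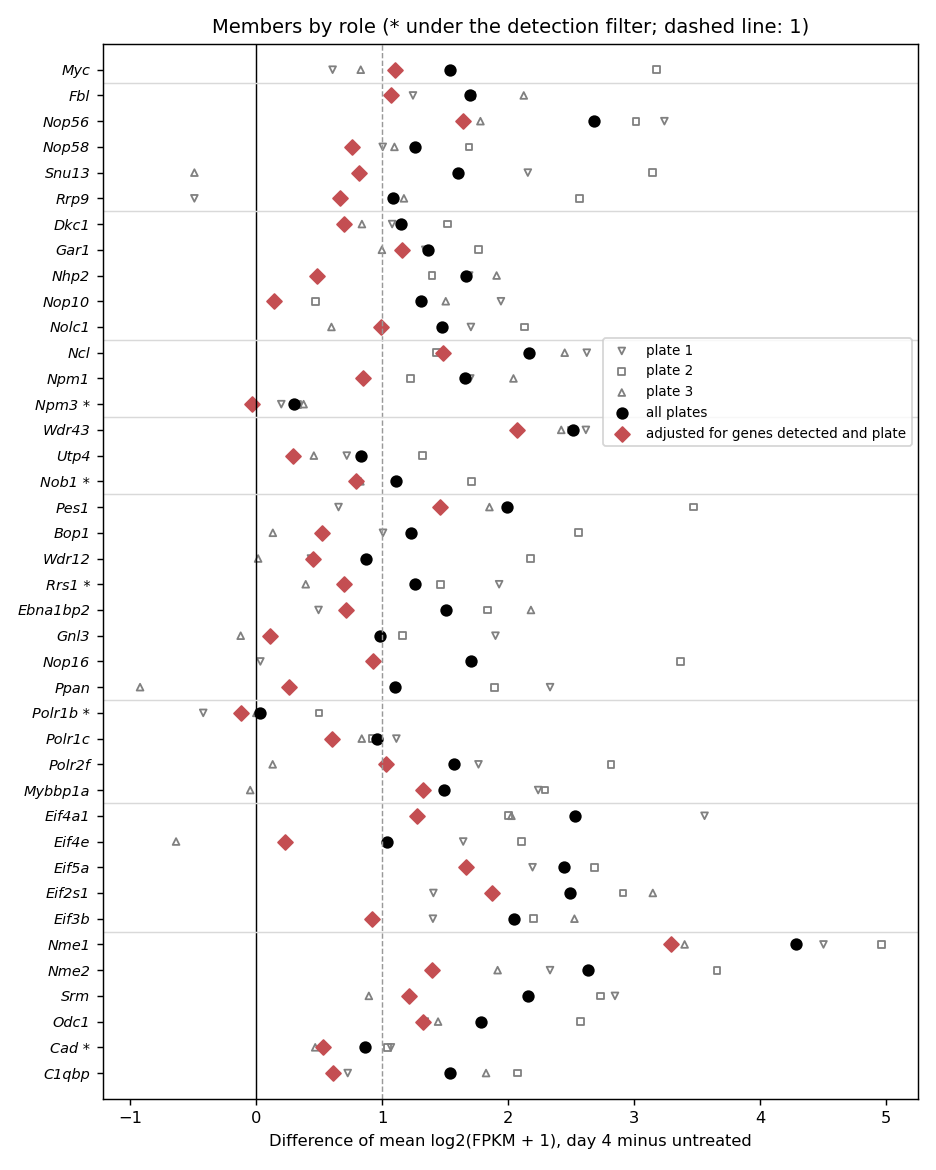
Difference of mean log2(FPKM + 1) between 36 day 4 and 54 untreated cells for each of the 40 members, grouped by role from Myc at the top to metabolic targets at the bottom. Black points are all plates, open marks the 3 plates and red diamonds the adjusted fit; Nme1 lies farthest to the right at 4.29, while centring cells on the median of 2000 abundant genes moves every gene by -1.89 and would put the 17 called members that lie below 1.89 under 0.

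Myc, the transcription factor, was detected at 1 FPKM or more in 31.2% of all cells (15 of 36 at day 4, 13 of 54 untreated). Its lowest, median and highest values were 0, 0.22 and 1567 FPKM without treatment, 0, 0.43 and 357 at day 2, and 0, 0.75 and 472 at day 4. Most cells at each time point were near 0 and the highest value of all was in an untreated cell, so the groups overlapped. Myc was high in 5 of 54, 8 of 54 and 12 of 36 cells. Its difference between day 4 and untreated cells was 1.54 (0.60, 3.17 and 0.83 by plate), 1.10 after adjustment and -0.36 when centred, and its mean FPKM was 1.15 times the untreated mean. Plate 2 gave most of the difference: no untreated cell was high there, and 6 day 4 cells were. Between day 4 and day 2 it was 1.08 (1.39, 1.0 and 0.84).

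Box C/D proteins form the particles that methylate ribosomal RNA. Of the 5 members, Fbl, Nop56 and Nop58 were called higher at day 4 than in untreated cells, and of these only Nop56 stayed above 0 when centred (0.78, compared with -0.20 for Fbl and -0.63 for Nop58). Nop56, a core scaffold protein of the particle (chromosome 2, 130274430 to 130279313, plus strand), had lowest, median and highest values of 0, 0.96 and 469 FPKM without treatment, 0.036, 0.68 and 308 at day 2, and 0.070, 81.4 and 1095 at day 4. It was high in 15 of 54, 8 of 54 and 23 of 36 cells, so that most day 4 cells were high and most others low, with overlap. Its mean log2 value was 2.38 ± 2.65 (SD, n = 54 cells), 1.81 ± 2.28 (n = 54) and 5.06 ± 3.19 (n = 36). The difference between day 4 and untreated cells was 2.68 (3.24, 3.01 and 1.78 by plate) and 1.64 after adjustment.

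Fbl, the methyltransferase fibrillarin, differed by 1.69 (1.24, 1.71 and 2.12 by plate; 1.07 adjusted), and its median was 0.17 FPKM in untreated cells and 4.34 at day 4, with a centred difference of -0.20. Nop58, the partner of Nop56, was high in 5 of 54 untreated, 0 of 54 day 2 and 6 of 36 day 4 cells and differed by 1.26 (1.0, 1.69 and 1.10). Snu13, which binds the guide RNA, and Rrp9, of the U3 particle, were not called: Snu13 differed by 1.6 with -0.49 in plate 3, and Rrp9 by 1.08 with -0.49 in plate 1.

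Box H/ACA proteins form the particles that pseudouridylate ribosomal RNA. Dkc1, Gar1, Nhp2, Nop10 and the chaperone-like Nolc1 were all called higher at day 4 than in untreated cells, by 1.14 to 1.66, which is below the shift of 1.89 and so gives -0.75 to -0.23 when centred. Gar1 was at most 0.35 FPKM in any untreated cell and was high in 0 of 54 untreated, 2 of 54 day 2 and 7 of 36 day 4 cells; 0 of 54 allows a share of up to 5.56% (3 cells of the total, counting error only). Its difference was 1.37 (1.34, 1.76 and 1.0 by plate), and it was the box H/ACA member that passed the adjusted rule (1.2). Dkc1, the pseudouridine synthase dyskerin, was high in 1 of 54, 5 of 54 and 6 of 36 cells and differed by 1.14 (1.08, 1.52 and 0.84). Nhp2 (1.66, then 1.69, 1.39 and 1.91 by plate) and Nop10 (1.30, then 1.94, 0.47 and 1.5) fell to 0.48 and 0.14 after adjustment, and Nolc1 (1.48, then 1.70, 2.13 and 0.60) to 0.99. Nhp2 was already high in 15 of 54 day 2 cells, compared with 5 of 54 untreated and 15 of 36 day 4 cells.

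Nucleolin (Ncl) and nucleophosmin (Npm1) are abundant nucleolar proteins that bind ribosomal RNA precursors and histones. Ncl had lowest, median and highest values of 0.022, 1.41 and 168 FPKM without treatment, 0, 0.93 and 322 at day 2, and 0.028, 39.9 and 160 at day 4. The untreated and day 4 ranges were nearly the same, and the day 4 cells were shifted toward their upper end, with 18 of 54, 16 of 54 and 21 of 36 cells high. Its difference between day 4 and untreated cells was 2.17 (2.62, 1.43 and 2.45 by plate), 0.27 when centred and 1.48 after adjustment, where plate 2 gave -0.068 and the adjusted rule was missed. Npm1 differed by 1.65 (1.70, 1.23 and 2.04), which became -0.24 when centred. It was high in 19 of 54, 27 of 54 and 24 of 36 cells. Npm3, a relative of Npm1, was high in 1 of 54, 0 of 54 and 1 of 36 cells.

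Small subunit assembly was represented by Wdr43 and Utp4, of the particle that forms on the nascent ribosomal RNA, and Nob1, the nuclease of the last cut of the small subunit RNA. Wdr43 (chromosome 17, 71615895 to 71659031, plus strand) had lowest, median and highest values of 0, 0.11 and 127 FPKM without treatment, 0, 0.11 and 28.95 at day 2, and 0, 10.02 and 655 at day 4. It was high in 3 of 54, 2 of 54 and 14 of 36 cells, the day 4 cells being spread over all plates (3, 5 and 6). Its difference of 2.51 was the most even across plates of those above 2 (2.62, 2.50 and 2.42), and stayed at 2.07 after adjustment and 0.62 when centred. Nob1 was at most 0.69 FPKM in any untreated cell and high in 0 of 54, 3 of 54 and 5 of 36 cells; it lay below the filter, with a difference of 1.11 (0.80, 1.70 and 0.83) that became -0.78 when centred. Utp4 was not called, at 0.83.

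Large subunit assembly had 8 members, of which Pes1, Bop1, Ebna1bp2, Nop16 and Rrs1 (below the filter) were called higher at day 4 than in untreated cells; when centred, Pes1 stayed above 0 (0.097) and the other 4 fell below it (-0.66 to -0.19). Pes1 and Bop1 act with Wdr12 in 1 complex that matures the large subunit RNA. Pes1 had a median of 0.12 FPKM in untreated and 0.85 in day 4 cells, was high in 3 of 54, 6 of 54 and 13 of 36, and differed by 1.99 (0.65, 3.47 and 1.85 by plate; 1.45 adjusted). Bop1 was high in 1 of 54, 1 of 54 and 10 of 36 cells and differed by 1.23 (1.01, 2.55 and 0.13), a value that became -0.032 among cells with 2500 to 4500 genes detected. Wdr12 was not called (0.87, with 0.014 in plate 3). All 3 partners had their largest difference in plate 2.

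Nop16, a nucleolar protein with Myc-dependent expression in other systems, differed by 1.70 (0.032, 3.37 and 1.72), Ebna1bp2 by 1.5 (0.49, 1.83 and 2.18) and Rrs1, which brings the 5S particle to the large subunit, by 1.26 (1.93, 1.46 and 0.39). Nop16 was high in 7 of 54 untreated, 4 of 54 day 2 and 15 of 36 day 4 cells, and among the latter 8 were on plate 2. Gnl3, the GTPase nucleostemin, and Ppan were not called: both were negative in plate 3, at -0.12 and -0.92.

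Of the polymerase group, only Polr2f, a small subunit shared by the 3 nuclear RNA polymerases, was called higher at day 4 than in untreated cells (1.57, then 1.76, 2.82 and 0.13 by plate, and -0.32 when centred). Mybbp1a, a nucleolar Myb-binding protein, differed by 1.49 (-0.40 when centred) with -0.049 in plate 3 and so missed the rule. It passed the adjusted one at 1.32 (0.89 when centred), with 1.64, 2.68 and 0.0086 by plate, so the sign in plate 3 was barely positive. Polr1c, shared by polymerases I and III, differed by 0.96 in all plates together (0.84 to 1.11). Polr1b, the second largest subunit of polymerase I, was high in 1 of 54, 3 of 54 and 0 of 36 cells, so hardly any cell had it.

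Translation initiation held the most widely detected members. Eif5a, the factor that carries hypusine, was at 1 FPKM or more in 142 of the 144 cells and Eif4a1, the helicase of the cap-binding complex, in 127. Eif5a had lowest, median and highest values of 0.77, 102.4 and 2569 FPKM without treatment, 1.48, 163 and 2939 at day 2, and 3.27, 443 and 1515 at day 4. It was high in 37 of 54, 40 of 54 and 34 of 36 cells. Its difference between day 4 and untreated cells was 2.44 (2.19, 2.68 and 2.44), 1.66 after adjustment and 0.55 when centred. Eif4a1 differed by 2.53 (3.56, 2.00 and 2.02) and by 0.63 when centred, but in the adjusted fit plate 2 gave -0.27.

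Eif2s1, the alpha subunit of eIF2 and the site at which stress kinases slow initiation, was high in 14 of 54, 12 of 54 and 26 of 36 cells. It differed by 2.49 (1.40, 2.91 and 3.15; 1.87 adjusted; 0.59 centred), although its highest value, 1162 FPKM, was in an untreated cell. Eif3b, a scaffold of eIF3, differed by 2.04 (1.40, 2.20 and 2.52; 0.92 adjusted; 0.15 centred). The cap-binding protein Eif4e was not called: its difference of 1.04 was -0.64 in plate 3.

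Among the metabolic members, Nme1, Nme2, Srm, Odc1 and C1qbp were called higher at day 4 than in untreated cells, and Odc1 and C1qbp turned below 0 when centred (-0.11 and -0.35). Nme1, a nucleoside diphosphate kinase (chromosome 11, 93956979 to 93968521, minus strand), had the largest difference of the 40. It had lowest, median and highest values of 0, 0.58 and 88.3 FPKM without treatment, 0, 0.86 and 427 at day 2, and 0.049, 99.4 and 556 at day 4. The median day 4 cell lay above every untreated cell, while 6 day 4 cells stayed below 20 FPKM. Nme1 was high in 9 of 54 (16.7%, exact Clopper-Pearson 95% interval 7.92 to 29.3%), 9 of 54 and 30 of 36 cells (83.3%, 67.2 to 93.6%), with 11, 11 and 8 of the 12 day 4 cells of plates 1, 2 and 3. Its mean log2 value was 1.54 ± 2.04 (SD, n = 54 cells), 1.86 ± 2.24 (n = 54) and 5.83 ± 2.58 (n = 36). The difference was 4.29 (4.50, 4.96 and 3.40), 3.29 after adjustment and 2.39 when centred.

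Nme2, its neighbour and close paralogue, differed by 2.63 (2.33, 3.66 and 1.91; 1.39 adjusted; 0.74 centred) and was high in 13 of 54, 23 of 54 and 25 of 36 cells. Both genes were high together in 2 of 54, 6 of 54 and 24 of 36 cells. Exons of Nme1 and of Nme2 both overlap the row Gm20390, and 66.2% and 86.4% of their values were no whole number of reads, so how reads were split between these rows is uncertain. Srm, the spermidine synthase, differed by 2.16 (2.85, 2.73 and 0.89; 0.26 centred), and Odc1, the ornithine decarboxylase of the same route, by 1.78 (1.34, 2.57 and 1.44; 1.32 adjusted). C1qbp, a mitochondrial matrix protein known as p32, differed by 1.54 (0.72, 2.07 and 1.82). Cad, the enzyme that opens pyrimidine synthesis, was high in 0 of 54, 2 of 54 and 3 of 36 cells.

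**Figure D2:**
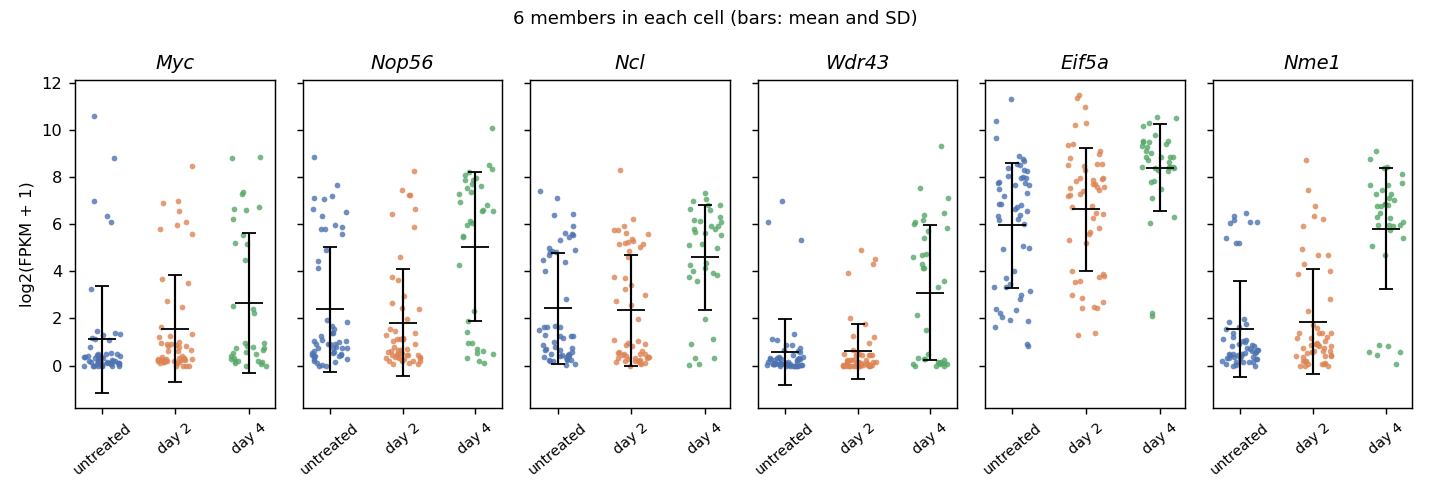
log2(FPKM + 1) of Myc, Nop56, Ncl, Wdr43, Eif5a and Nme1 in each cell, with the mean and SD over cells at each time point (54, 54 and 36 cells). Cells fall into a low and a high range for most of the 6, and the high range holds 30 of 36 day 4 cells for Nme1 but 12 of 36 for Myc.

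The share of cells in which a member was high gives the same comparison without a mean of logs. It was highest at day 4 for 39 of the 40 members, Polr1b being the exception; the same held for 48.2% of the 15218 genes with at least 1 high cell and for 75.4% of the 2000 genes of highest mean. The number of members high in a cell had a median of 5 without treatment (0 to 15), 5.5 at day 2 (0 to 24) and 16 at day 4 (0 to 28). At least 10 members were high in 9 of 54, 12 of 54 and 28 of 36 cells, and in 8, 11 and 9 of the 12 day 4 cells of plates 1, 2 and 3. Cells with more genes have more of any list, so the members were also counted as a share of the genes high in the cell. That share, pooled over cells, was 0.401% without treatment, 0.3998% at day 2 and 0.732% at day 4 (0.789, 0.728 and 0.692% by plate).

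**Figure D3:**
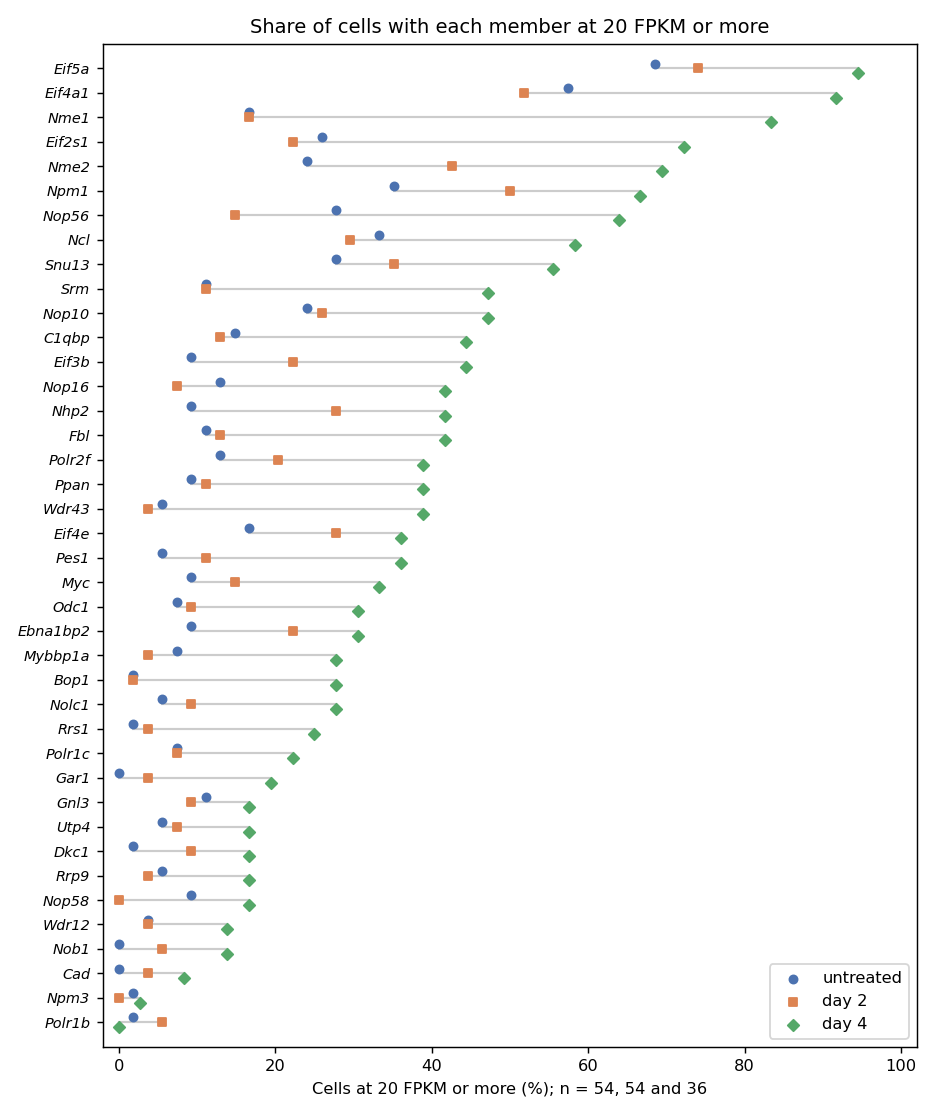
Percent of cells with each of the 40 members at 20 FPKM or more, for untreated (54), day 2 (54) and day 4 (36) cells, in order of the day 4 share. Day 4 lies to the right for 39 of the 40, with Eif5a at 94.4% and Polr1b at 0%.

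Day 2 stood close to untreated cells. The median difference of the 35 measured members was 0.12 (-0.064, 0.18 and 0.23 by plate), and that of all measured genes 0.21. No member was called, compared with 3.89% of measured genes called higher and 0.0576% lower. Nme2 (0.98) and Npm1 (0.81) had the highest differences, with plate values that ranged from 0.12 to 2.24 and from -0.59 to 2.17. After adjustment the members' median was -0.14, none was called higher (0.991% of measured genes) and Nop56 was called lower (0.876%), at -1.11 with -0.28, -1.21 and -2.01 in the 3 plates. The plate means did not overlap, with day 2 higher, for Eif5a, Eif3b and Nme2 (9.74% of measured genes) and with day 2 lower for none (0.887%). When centred, the day 2 differences moved by -0.84 and the members' median became -0.71.

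Between day 4 and day 2, 23 of the 35 measured members were called higher (9.57% of measured genes) and none lower (0.864%), with a median of 1.36 (1.47, 1.95 and 0.84 by plate), compared with 0.25 over all measured genes. In the adjusted fit 18 were called higher (5.13%) and none lower (2.36%), with a median of 1.02. When centred, which moved every gene by -1.06, the members' median was 0.30 and 1 called member, Gnl3, turned below 0 (-0.035). Rrs1, below the filter, was also called. The plate means did not overlap for 18 of the 35, with day 4 higher in each of them (12.6% of measured genes), and for none with day 4 lower (2.65%). With the filter on day 2 alone, 21 of 32 members were called, compared with 8.96% of genes. The values at day 4 are the same as in the comparison with untreated cells, so the comparisons are not independent.

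The largest differences between day 4 and day 2 were those of Nme1 at 3.96 (5.24, 4.21 and 2.44 by plate), Nop56 at 3.25 (3.48, 3.00 and 3.26), Eif2s1 at 2.87 (2.42, 2.42 and 3.78) and Eif4a1 at 2.81 (4.70, 2.37 and 1.35). Wdr43 followed at 2.51 (2.62, 1.97 and 2.92), Srm at 2.39 (2.91, 3.8 and 0.47), Ncl at 2.25 (2.57, 1.90 and 2.27) and Nop16 at 2.14 (0.89, 3.63 and 1.89). Nop58, which was high in no day 2 cell, differed by 1.64 (1.54, 1.98 and 1.38), where its difference from untreated cells had been 1.26. Dkc1, Nhp2, Npm1 and Ebna1bp2, called between day 4 and untreated cells, were not called here, at 0.57, 0.86, 0.84 and 0.83, nor were Bop1 (1.36) and Polr2f (1.2), which were -0.15 and -0.54 in plate 3, or Nob1 (0.61), below the filter. Nop56, Ncl, Wdr43, Eif4a1 and Nme1 were called under each of 10 alternative settings, centring included. Between day 4 and untreated cells Nme1 was the one member of which that held. The share of all measured genes called under each of the 10 settings was not computed, so these counts are descriptions.

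To follow the members together, each of the 35 was standardised over all cells and averaged within a cell. The lowest, median and highest level was -0.66, -0.26 and 0.48 without treatment, -0.70, -0.17 and 1.02 at day 2, and -0.67, 0.53 and 1.39 at day 4. Plate means were -0.31, -0.21 and -0.12 without treatment, -0.32, -0.065 and -0.014 at day 2, and 0.38, 0.78 and 0.40 at day 4. Each day 4 plate mean was above all 6 others, while single day 4 cells reached down to the lowest untreated ones. The SD between cells was 0.27, 0.35 and 0.55, so the day 4 cells were also the most spread.

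**Figure D4:**
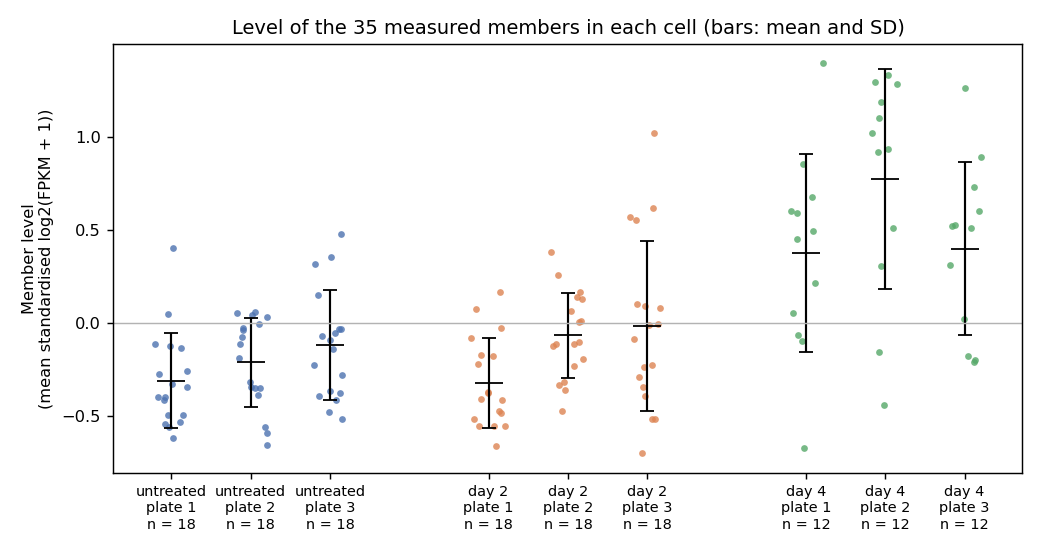
Mean standardised log2(FPKM + 1) of the 35 measured members in each cell, by time point and plate, with mean and SD over cells. The day 4 plate means are 0.38, 0.78 and 0.40 and the other 6 lie between -0.32 and -0.014, on the scale as deposited. This level was not computed on the centred scale. There the members' median log2 difference between day 4 and untreated cells, a different measure, is -0.32.

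The level moved with the number of genes detected in a cell: Pearson's r was 0.81 over the 54 untreated, 0.81 over the 54 day 2 and 0.77 over the 36 day 4 cells. These correlations are across cells of 1 library set, whose points share plate and depth, and are descriptions. With only the part tied to genes detected taken out, the mean level was -0.079 ± 0.16 (SD, n = 54 cells), -0.16 ± 0.21 (n = 54) and 0.35 ± 0.35 (n = 36) in untreated, day 2 and day 4 cells. Whether cells at day 4 held more RNA, or were captured more fully, cannot be told apart from the time point here.

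**Figure D5:**
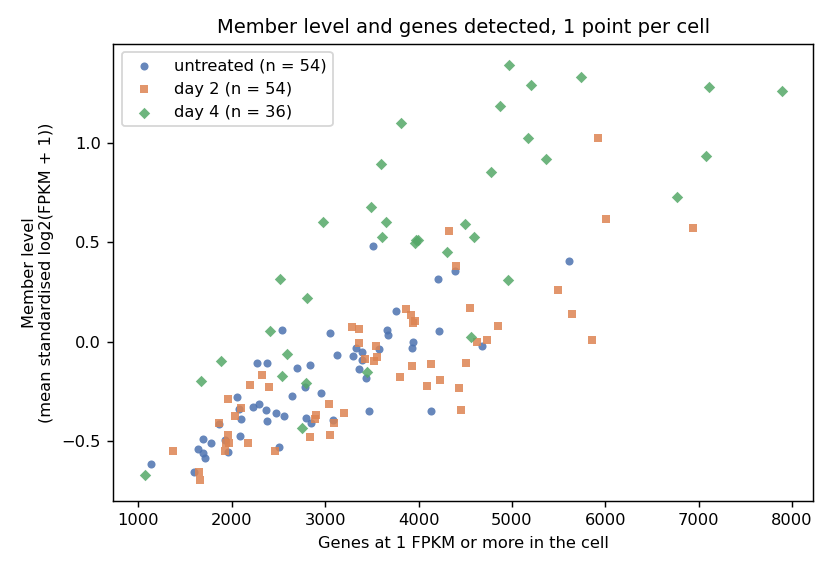
Mean standardised log2(FPKM + 1) of the 35 measured members against the number of genes at 1 FPKM or more, 1 point per cell. The level climbs with genes detected at each time point (r = 0.81, 0.81 and 0.77), and many day 4 cells lie above untreated and day 2 cells of like gene number.

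Correlations between members were computed over all cells. Over the 595 pairs of measured members and 144 cells, the median r was 0.22, and 0.037 once time point, plate and genes detected were removed. Pairs within 1 role had a median of 0.073 and pairs across roles of 0.034 on that basis. Myc followed the mean of the other members with r = 0.30 in untreated, 0.13 in day 2 and 0.060 in day 4 cells, and after the same removal with -0.037, -0.044 and -0.062. The members closest to the rest were Nop16 (0.44) and Wdr12 (0.39). In sparse values such as these, weak correlations are not a finding.

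The genes outside the list whose adjusted values were most like the members' level, over 144 cells, were Mrps27, Slc16a3, Seh1l, Psmc5, Asb8, Ecd, Dnajb11, Fbl-ps2, Eif2b3 and Eef1e1, with r from 0.33 to 0.38. Genes with Gm-number or Rik names were left out of this ranking. Fbl-ps2 is by its name a pseudogene of the member Fbl, of whose values 49.6% were no whole number of reads. How reads were split between these 2 rows is uncertain. Of the genes in the title of the series, the level correlated with Tnf, an inflammatory cytokine, at r = 0.10, 0.38 and 0.13 after adjustment in untreated, day 2 and day 4 cells, with the receptor Gpr84 at 0.33, 0.00069 and 0.069, and with the cytokine Il1a at 0.16, 0.051 and 0.10. With the growth and cell cycle genes of a 13 gene list the same values were 0.038, 0.42 and -0.17.

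Other genes of the same routes were taken from lists written by function, whose counts stand beside the 18.9% of all measured genes called higher and the 5.9% called higher in the adjusted fit. Between day 4 and untreated cells on the scale as deposited, 23 of 27 measured genes commonly linked to Myc were called higher (median 1.91, or 0.021 when centred), 14 of them in the adjusted fit (median 1.09). They included the nuclear transport pair Ranbp1 (3.56) and Ran (3.49), the chaperonin subunit Cct5 (2.97) and the lactate dehydrogenase Ldha (2.89). Of the other large subunit factors 17 of 41 were called (median 0.99; -0.90 centred), 6 after adjustment, led by Rsl1d1 (2.80), Eif6 (2.55), Gnl2 (2.26) and Nifk (2.10). Of the other small subunit factors 8 of 33 were called (0.72; -1.17 centred) and 1 after adjustment, Bysl at 1.51 (1.32 adjusted), with 1 lower; Pno1 (1.65), Tbl3 (1.29) and Ltv1 (1.43, not called, with -0.16 in plate 1) were the others of largest size. The rest of the polymerase I machinery had 1 of 13 called (0.64; -1.25 centred) and 1 after adjustment, the small subunit Polr2l (2.12), and Polr1d, Cd3eap and Polr2k were at 1.43, 0.89 and 0.86 without passing.

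Assembly factors of the box C/D and H/ACA particles had 2 of 5 called (median 0.84; -1.05 centred), the helicases Ruvbl1 (1.86) and Ruvbl2 (1.79), and none after adjustment. Partners and rivals of Myc had 1 of 7 called (0.33; -1.57 centred) and none after adjustment, Mxd3 (1.37) being the 1 called, while the Myc antagonist Mxd4 was at -0.66. Other polyamine genes had 1 of 10 called (0.34; -1.55 centred) and 1 after adjustment, with 1 lower. Dohh, which completes hypusine on the protein of Eif5a, was called in both at 2.13 (1.70 adjusted). Nucleotide synthesis had 6 of 13 called (1.24; -0.65 centred) and 3 after adjustment. Impdh2 (2.15) and Tyms (1.65) were called in both, Paics (1.63) only before adjustment, and Cmpk1 was at 2.05 but negative in plate 1. Other initiation factors had 12 of 33 called (0.95; -0.94 centred) and 4 after adjustment. The largest differences were those of Eif3g (2.50), Eif3l (2.14), the exon junction complex helicase Eif4a3 (2.12) and Eif3a (1.92), of which Eif4a3 was not called after adjustment. Brakes on translation had 1 of 5 called (0.11; -1.78 centred) and none after adjustment, Eif4ebp1 (1.68) being the 1 called, and the brake Pdcd4 was at -0.40.

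The list of elongation factors, which also holds the release factor Etf1 and Eef1e1 of the tRNA synthetase complex, had 5 of 9 called (1.42; -0.47 centred). After adjustment 3 were called. The largest differences were those of Eef1g (2.04), Eef2 (1.91), Eef1e1 (1.79) and Etf1 (1.57), all called, and Etf1 was not called after adjustment. The nuclear exosome, which trims ribosomal RNA, had 5 of 11 called (0.98; -0.91 centred) and 2 after adjustment. Exosc10, at 1.45, was called only before adjustment. Mitochondrial ribosome genes had 22 of 42 called (1.17; -0.72 centred) and 7 after adjustment, led by Mrpl4 (2.31) and Mrpl33 (2.27). Cytosolic ribosomal proteins had 35 of 86 called (0.96; -0.94 centred) and 12 after adjustment, with 1 lower. Genes of the p53 route, both sensors of ribosome stress and targets of p53, had 3 of 9 called (0.83; -1.06 centred) and 3 after adjustment. Those called were Rps27l (2.66), Cdkn1a (2.20) and Rpl5 (1.90), with Mdm2 at 0.85. Rps27l and Rpl5 are also counted among the cytosolic ribosomal proteins and Sesn1 also among the brakes on translation, so these lists share genes. Growth and cell cycle genes had 12 of 13 called (1.74; -0.15 centred) and 7 after adjustment, among them the replication helicase genes Mcm3 (2.51), Mcm6 (2.33) and Mcm2 (2.22). Stmn1, of the same list, differed by 2.34 at day 4 and by 2.21 already at day 2, where no member was called.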

How the data were processed

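Each library was made from 1 sorted cell by cDNA amplification and tagmentation, per the labels' protocols. The authors deposited 1 table of FPKM values per gene and cell, which was used as it stood. The submitters' processing notes name, without roles, featureCounts 1.6.1, STAR 2.7.2b, Trimmomatic 0.36, cutadapt 1.16 and Trim Galore 0.4.4, and the build GRCm38.p6. Reads worked back from FPKM and gene length were whole (within 0.01 reads) for a median of 59.4% of a cell's values, so no count model was used. For 9 members (Nop56, Snu13, Npm1, Ppan, Eif4a1, Eif4e, Eif5a, Nme1 and Nme2) over 50% of the values were not whole, and their split from overlapping or near-identical rows is uncertain.

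Values were log2(FPKM + 1). Differences of means over cells were taken over all plates and in each, and least-squares fits held time point, genes detected and plate (each plate refitted alone). Sequences came from the RefSeq promoter table. The members and lists were chosen with earlier results of these data known. All members are named by role; of each other list, up to 4 genes of largest difference between day 4 and untreated cells, and 10 genes nearest the member level. The fits were run on simulated data in which gene number was an exact linear function of a shift shared by all genes. Recovery was therefore built in and no plate effect was simulated, so the run says little about values as sparse as these. Python 3.11.15, numpy 2.4.6, pandas 2.3.3, scipy 1.17.1 and matplotlib 3.10.9 were used.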

Additional observations from a re-analysis of the deposited data

How the results depend on the processing

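Each time point is 1 sample of cells, so no error between animals is known, and depth limits the low members most. No paired analysis was possible because no result comes from a test; every plate held cells of all 3 time points, so differences are also given within each plate and plate is a term of the adjusted fit. Medians of the 35 measured members and counts of those called follow. Where 3 are given, the order is day 4 minus untreated, day 2 minus untreated and day 4 minus day 2. For other pseudocounts, the log2 of the mean FPKM and centring, the share of all measured genes called was not computed. Nor was it computed without a plate or without cells holding other markers. The counts of members called under these settings are therefore descriptions and cannot be set against all measured genes.

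With a pseudocount of 0.1 the median was 2.24 for day 4 minus untreated, the adjusted medians were 1.09, -0.26 and 1.36, and 1 member was called at day 2. With a pseudocount of 10 the medians of day 4 minus untreated and day 4 minus day 2 were 0.78 and 0.66, with 12 and 10 called; the adjusted medians were 0.52, -0.065 and 0.54, with 7 and 9 called at day 4. With each cell centred on its median the medians were -0.32, -0.71 and 0.30, with 1 and 7 called at day 4; the adjusted medians at day 4 were 0.50 and 0.66, with 4 and 10 called. Among cells with 2500 to 4500 genes the day 4 minus untreated and day 2 minus untreated medians were 0.92 and -0.066. Of the members 11, 2 and 14 were called (8.64, 5.15 and 5.73% of measured genes), and the adjusted median at day 2 was -0.24. With genes detected and plate as covariates the first 2 medians were 0.93 and -0.14, with 12 called at day 4 minus untreated.

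For day 2 minus untreated, 1 member was called with the log2 of the mean FPKM, 2 without plate 1, 2 without plate 2, 1 without plate 3, 2 without cells holding markers of other cells and 2 without cells holding any list of other markers, where the median was 0.35 and the adjusted one 0.036; the adjusted median was -0.24 without plate 1 and -0.21 with the filter on untreated cells alone, and 1 passed the adjusted rule without plate 2.

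A change of sign was counted as a reversal only for members called in the main setting. Among those, the values that reversed in day 4 minus untreated when cells were centred were those of Myc (-0.36), Fbl (-0.20), Nop58 (-0.63), Dkc1 (-0.75), Gar1 (-0.53), Nhp2 (-0.23), Nop10 (-0.59), Nolc1 (-0.42), Npm1 (-0.24), Nob1 (-0.78), Bop1 (-0.66), Rrs1 (-0.63), Ebna1bp2 (-0.39), Nop16 (-0.19), Polr2f (-0.32), Odc1 (-0.11) and C1qbp (-0.35). Members that were not called also fell below 0 when centred, such as Snu13 (-0.29) and Rrp9 (-0.81). Bop1 was -0.032 among cells with 2500 to 4500 genes, and Gnl3 was -0.035 in day 4 minus day 2 when centred. By construction centring takes the same amount from every gene; the cause of the other shifts was not tested. Of 1320 differences of single members recomputed under the alternatives, 1000 stayed within 1 SD between plates, 301 moved further and 19 of called members reversed. Members not called that changed sign are held in the counts of 1000 and 301.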
